A study of Mus musculus with 12 samples.

Results

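Kidney tubular cells treated with TGFβ were compared with the same cells given TGFβ together with an inhibitor of nicotinamide N-methyltransferase (NNMT). The comparison used 6 of the study's 12 libraries, 3 labelled TGFβ and 3 labelled TGFβ plus inhibitor, chosen by their treatment label and not by any measured value. The cells, im-TEC, are mouse tubular epithelial cells under conditional immortalization by SV40 large T antigen, which were kept at 33 °C with IFNγ and then grown for 7 days at 37 °C without IFNγ before seeding. TGFβ was given at 10 ng/mL, and the inhibitor, 5-amino-1-methylquinolinium, at 50 µM. All treatments lasted 48 h, and the other 6 libraries were 3 untreated controls and 3 with the inhibitor alone. Messenger RNA was read at the 3′ end of transcripts, and 13581 of the 55487 genes in the table had enough counts to be tested. The model is 1 cell line. The labels do not say whether replicates were separate cultures, and the p-values therefore speak only of the spread among these libraries, which may be technical.

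NNMT transfers a methyl group from S-adenosylmethionine to nicotinamide, and so draws on both the methyl donor used for histone and DNA methylation and the vitamin from which NAD is remade. TGFβ is the ligand best known for driving epithelial cells towards matrix production and a contractile state, through receptor kinases that activate SMAD transcription factors. In injured kidney tubules the same cells can also stop dividing, express injury markers such as KIM-1 and release cytokines.

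The libraries held 2584117 to 11866903 counts in genes, with the fewest in TGFβ replicate 3 and the most in TGFβ replicate 2. TGFβ replicate 2 stood apart from the other libraries of its group, and the biological coefficient of variation was 0.227 among the TGFβ libraries against 0.112 among those with TGFβ and inhibitor. It was 0.0657 among controls, 0.0884 with inhibitor alone and 0.137 over all 12 libraries. The main test took its spread from all 12, and so also from these tighter groups, which are not compared here. Levels below are given as CPM, the count of a gene relative to its TMM-normalized library size, and since QuantSeq reads the end of each transcript, they do not scale with gene length. A gene was called when the Benjamini-Hochberg adjusted p of edgeR's quasi-likelihood test, run over all genes tested, was below 0.05, and every adjusted p below comes from that test unless another is named. Of the markers of tubular epithelium, Cdh16, Pax8, Pax2 and Krt8 were present in all 6 libraries, whereas Epcam had 0 counts. The proximal marker Slc34a1, the distal marker Umod, the podocyte marker Nphs1, the fibroblast marker Pdgfra, the endothelial markers Cdh5 and Kdr and the macrophage marker Adgre1 were also at 0 counts. Other markers of these types had counts, summed over the 3 libraries of a group: with TGFβ and with both agents, Lrp2 had 1844 and 3003 and Aqp1 600 and 289 (proximal), Slc12a1 35 and 2 (distal), Wt1 39 and 15 (podocyte) and Pdgfrb 109 and 57 (fibroblast). In these bulk cultures fewer cells of a kind and less RNA per cell cannot be told apart.

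Nnmt itself (ENSMUSG00000032271) was expressed at 29.1, 24.7 and 33.3 CPM in the 3 TGFβ libraries and at 26.9, 27.2 and 23.6 CPM with TGFβ plus inhibitor. The groups overlapped, and the difference of -0.14 ± 0.16 (log2, SE) was not called (adjusted p = 0.643). The compound acts on the enzyme, so the transcript does not check the labels. Controls had 26.2 ± 3.01 CPM (SD, n = 3) and cells with inhibitor alone 19.2 ± 3.51 CPM. Inmt, a related small-molecule methyltransferase, was at 0 counts in all 6 libraries with TGFβ, against 53.2 ± 6.48 CPM in controls.

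Adding the inhibitor to TGFβ lowered more transcripts than it raised, and the falls were the larger. Of the genes tested, 1416 were called (10.4%), 947 lower (6.97%) and 469 higher (3.45%). At least 2-fold differences were called for 402 genes that fell and for 47 that rose. The median log2 difference over all genes was -0.02. Without regard to the test, all 3 libraries with inhibitor lay below all 3 without for 1874 genes (13.8%) and above them for 1370 genes (10.1%). The count of calls depended on the libraries in the fit. With only these 6 libraries the filter kept 12799 genes, scaling was redone and 4 residual degrees of freedom were left. The spread then came without the tighter controls and libraries with inhibitor alone. The part of each in the drop was not tested. The count was then 408, with 332 lower and 76 higher, and 406 of the 408 were also among the 1416. It ranged from 762 without replicate 3 of TGFβ plus inhibitor to 1938 without TGFβ replicate 3.

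**Figure D1:**
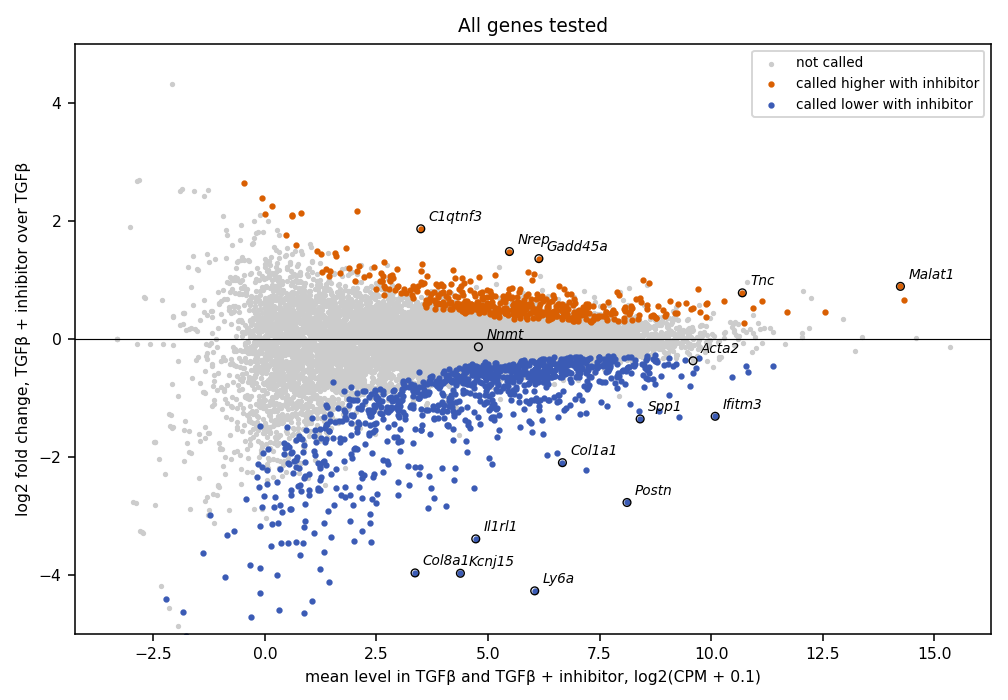
Each point is 1 of the 13581 genes tested, with its mean level in the 2 groups on the x axis, as log2(CPM + 0.1), and the log2 fold change of TGFβ plus inhibitor over TGFβ on the y axis; coloured points were called. The called falls reach further from 0 than the called rises, Nnmt lies among the genes not called, and 10 genes beyond 5 on the y axis are not drawn.

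The largest falls were taken among called genes of at least 10 CPM in 1 of the groups whose libraries did not overlap, and the largest rises by the same rule. Ly6a, which encodes the surface antigen Sca-1, had 142, 111 and 124 CPM with TGFβ and 5.32, 6.18 and 8.06 CPM with TGFβ plus inhibitor, a 19.3-fold fall (log2 -4.27 ± 0.16, adjusted p = 7.62e-12). The inhibitor alone was also at a low level, 19.4 ± 2.84 CPM against 171 ± 9.89 CPM in controls. Kcnj15, an inwardly rectifying potassium channel, went from 41, 44.1 and 31.8 CPM to 0.926, 3.6 and 3.04 CPM (log2 -3.97 ± 0.26). Il1rl1, the receptor for interleukin-33, stood at 49.9, 43.4 and 51.3 CPM with TGFβ and at 5.9, 4.27 and 3.43 CPM with both agents (log2 -3.39 ± 0.37), against 1.11 ± 0.866 CPM in controls. The other leading falls were Col8a1, Lrrc32, Slfn2, Postn and Havcr1, described with their groups, and P2rx7, an ATP-gated channel (log2 -2.65 ± 0.33), Serpinb9b, an intracellular protease inhibitor (-2.53 ± 0.21), Lsp1, an actin-binding protein of leukocytes (-2.53 ± 0.34), and Serpinf1, which encodes the secreted factor PEDF (-2.48 ± 0.32).

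The leading rises were smaller. C1qtnf3, a secreted protein of the C1q and TNF-related family, rose from 4.95, 5.22 and 3.83 CPM to 21.4, 14.5 and 17 CPM (log2 1.86 ± 0.28, adjusted p = 0.000262), from 0.148 ± 0.13 CPM in controls. Nrep had 29.9, 21.4 and 17.6 CPM with TGFβ and 62.9, 69.2 and 66.3 CPM with both agents (log2 1.48 ± 0.15). Gadd45a, a stress-induced regulator of the cell cycle and DNA repair, went from 43.8, 31.4 and 44.4 CPM to 113, 90 and 100.2 CPM (log2 1.36 ± 0.13, adjusted p = 2.2e-06), while controls had 70.8 ± 0.434 CPM. Igfbp5, Ankrd39, Sned1, Ppp4r1l-ps, Cyp1b1, Add3, Slc17a5 and Pgap1 followed, with log2 rises from 1.04 to 1.26. Fgf21, a hormone of the integrated stress response, was called (log2 1.16 ± 0.34, adjusted p = 0.0432) but lost the call without TGFβ replicate 2 (0.101) or without replicate 1 (0.181) or 3 (0.117) of the combined treatment.

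**Figure D2:**
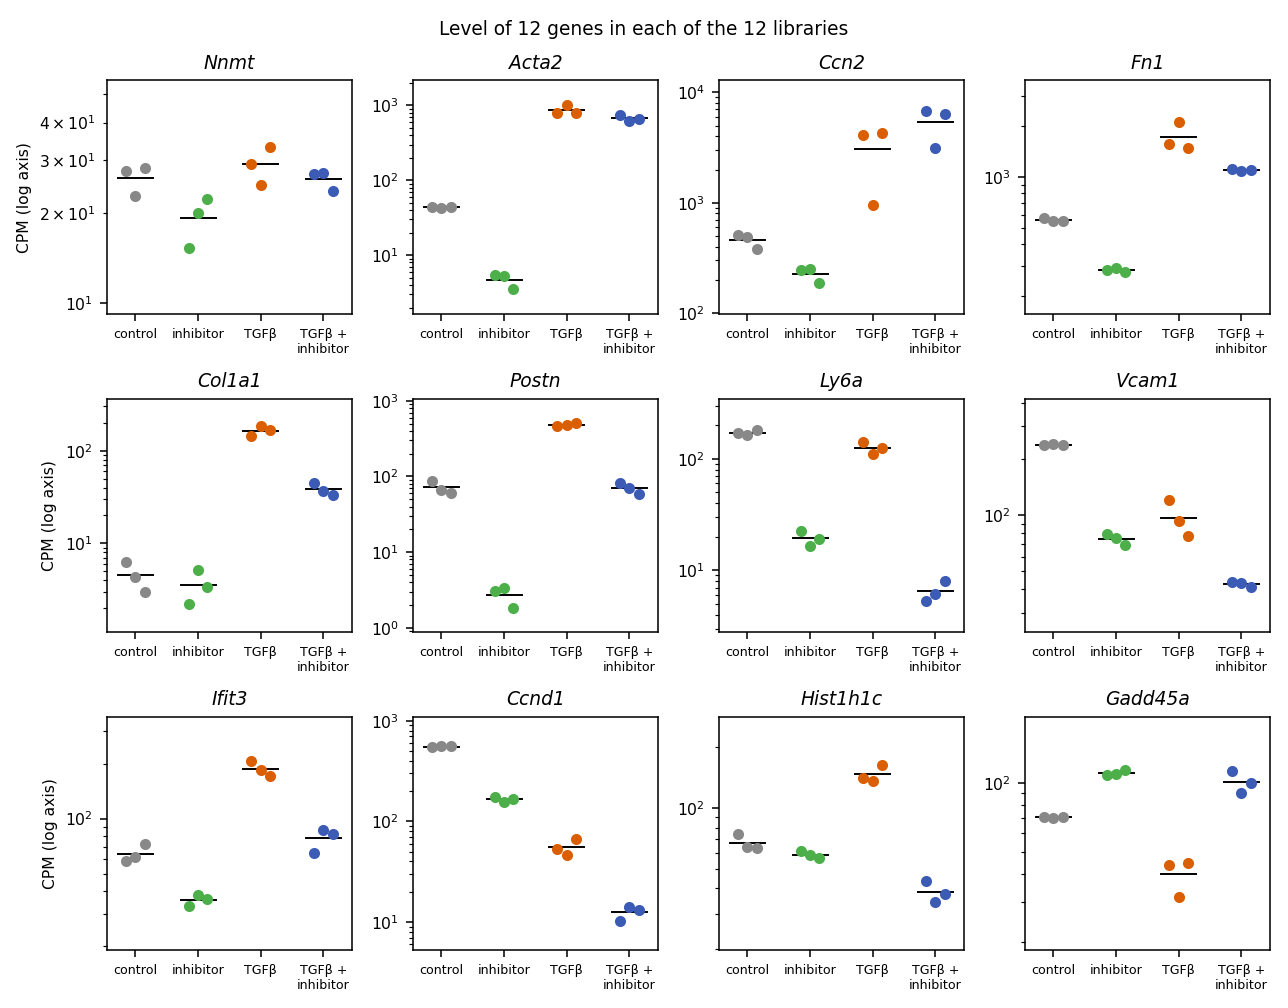
The level of 12 genes in each library, in CPM on log axes, with 1 point per library and a bar at the mean of the 3; the groups are control, inhibitor, TGFβ and TGFβ plus inhibitor. Ly6a, Postn, Col1a1 and Hist1h1c lie lower with TGFβ plus inhibitor than with TGFβ, Gadd45a lies higher, and the points of Nnmt and Ccn2 overlap between those 2 groups.

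Genes of the extracellular matrix were lower when the inhibitor was added, although not all of those that TGFβ raised. Among 23 tested members of a list of fibrillar collagens and matrix proteins, 12 fell (52.2%) and 1 rose (4.35%), beside 6.97% and 3.45% of all genes. Their median log2 difference was -0.71, beside -0.02 over all genes. Col1a1, a chain of type I collagen, had 144, 183 and 167 CPM with TGFβ and 45.1, 37 and 33.1 CPM with TGFβ plus inhibitor (log2 -2.10 ± 0.20, adjusted p = 6.52e-06). It remained above controls, at 4.54 ± 1.62 CPM (log2 3.09, adjusted p = 6.5e-08). The partner chain Col1a2, named after its values were seen, went from 7.22, 8.77 and 6.89 CPM to 0.694, 0.899 and 1.98 CPM (log2 -2.70 ± 0.43). Both chains were lower in every library with the inhibitor.

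Transcripts of periostin and fibronectin, adhesive matrix proteins, also fell. Postn had 462, 484 and 506 CPM with TGFβ and 83, 70.2 and 58.6 CPM with both agents (log2 -2.77 ± 0.15, adjusted p = 5.11e-09). The second level was within the spread of the controls, 71.7 ± 13.8 CPM (log2 -0.02, adjusted p = 0.931), whereas cells with inhibitor alone had 2.75 ± 0.783 CPM. Fn1 went from 1570, 2101 and 1490 CPM to 1117, 1088 and 1101 CPM (log2 -0.64 ± 0.11, adjusted p = 0.0009). Col8a1, a short-chain collagen, fell 15.6-fold (log2 -3.97 ± 0.35), Spp1, which encodes osteopontin, 2.56-fold (adjusted p = 9.14e-08) and Ecm1 2.1-fold (adjusted p = 1.78e-05). The rise was of Tnc, the matricellular protein tenascin-C (also named after its values were seen), from 1438, 1039 and 1199 CPM to 2332, 1925 and 2054 CPM (log2 0.78 ± 0.11, adjusted p = 0.000213). Fitted on only these 6 libraries, the fibrillar list held 8 falls.

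Transcripts of proteins that cut the matrix, inhibit its proteases or link it changed both ways. Of 22 proteases and inhibitors, 7 fell (31.8%) and 2 rose (9.09%, median -0.39), beside 6.97% and 3.45% of all genes. Timp1, an inhibitor of matrix metalloproteinases, fell from 78.5, 108 and 96 CPM to 59.3, 63.5 and 60.1 CPM (log2 -0.63 ± 0.12). Adamts1 fell 2.33-fold and Plaur, the urokinase receptor, 2.17-fold, while Adam17, the sheddase that releases TNF and EGF receptor ligands, rose 1.51-fold. Among 19 genes of crosslinking and processing, 3 rose and 3 fell (15.8% each, median 0.04): the lysyl oxidases Loxl4 (log2 -1.29 ± 0.21) and Loxl2 (-0.77 ± 0.16) were among the falls, and the collagen hydroxylases P4ha1 (0.40 ± 0.09) and P3h1 (0.62 ± 0.14) among the rises. Of 16 basement membrane genes 2 rose (12.5%), agrin (Agrn, 0.60 ± 0.09) and perlecan (Hspg2, 0.42 ± 0.08), and 1 fell (6.25%, near the share of all genes). Col4a1, a chain of basement membrane collagen, was not called, with 2.37, 3.81 and 2.68 CPM against 2.55, 2.36 and 3.3 CPM (log2 -0.16 ± 0.31). The calls of Adam17, P4ha1, P3h1 and Hspg2 were lost in the fit of only these 6 libraries.

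Contractile genes mark a myofibroblast state. Of 30 tested contractile and actin-binding genes 4 fell and 0 rose (median -0.10), a share of 13.3% lower beside 6.97% of all genes. Acta2, which encodes α-smooth muscle actin, had 792, 1022 and 804 CPM with TGFβ and 747, 619 and 658 CPM with TGFβ plus inhibitor. Each library with inhibitor was lower, but the difference of -0.37 ± 0.12 missed the threshold (adjusted p = 0.052). It passed in 7 of 15 other settings, such as with DESeq2 (0.028), without TGFβ replicate 1 (0.0384) or without TGFβ replicate 3 (0.0245). Across the 15 the log2 difference ran from -0.44 to -0.24, and the adjusted p reached 0.321. In both groups Acta2 was far above controls, at 43.6 ± 1 CPM. Tagln, an actin-binding protein of smooth muscle, overlapped between 327, 569 and 264 CPM and 371, 230 and 342 CPM (log2 -0.31 ± 0.28, adjusted p = 0.549). Cnn1, the actin-binding calponin, fell from 46.5, 66.6 and 29.1 CPM to 19, 21 and 17.6 CPM (log2 -1.35 ± 0.21), the level of the controls (19.2 ± 1.62 CPM). Myl9, a myosin light chain, fell 4.55-fold and S100a4 1.77-fold.

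The genes closest to TGFβ receptor signalling split. Of 24 tested genes of TGFβ signalling and feedback, 4 rose and 4 fell (16.7% each, median -0.02), and of 23 direct SMAD targets 3 rose (13%) and 4 fell (17.4%, median 0.15). Of all genes 3.45% rose and 6.97% fell. Ccn2, which encodes connective tissue growth factor, had 4088, 946 and 4262 CPM with TGFβ and 6730, 3132 and 6384 CPM with both agents. The groups overlapped, and the difference was not called (log2 0.81 ± 0.51, adjusted p = 0.377). It had the higher group mean with the inhibitor, and both groups were above controls, at 457 ± 69.9 CPM.

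Pmepa1, a feedback inhibitor of the pathway, had 1269, 2100 and 1462 CPM with TGFβ and 2364, 2360 and 2196 CPM with both agents (log2 0.52 ± 0.13, adjusted p = 0.0199), and it lost the call without TGFβ replicate 1 (0.0679). Ankrd1, a target of TGFβ and YAP, rose from 2704, 2386 and 3309 CPM to 3705, 4147 and 3594 CPM (log2 0.45 ± 0.11, adjusted p = 0.0124) and lost the call without replicate 2 of the combined treatment (0.0505). Id1, an inhibitor of helix-loop-helix factors under BMP control, rose 1.45-fold. Lrrc32, which encodes GARP, a docking receptor for latent TGFβ, fell from 16.9, 20.1 and 28.7 CPM to 3.94, 2.7 and 2.11 CPM (log2 -2.86 ± 0.33). It had 0 counts in the 3 controls. Of the latent TGFβ binding proteins, Ltbp1 fell 3.07-fold (adjusted p = 0.000143) and Ltbp3 rose 1.37-fold. Smad3, the transducer itself, went from 142, 166 and 129 CPM to 88.8, 89.6 and 86.5 CPM (log2 -0.73 ± 0.10, adjusted p = 0.000146). Tgfb1 was not called (log2 -0.47 ± 0.37). The integrin subunit Itgb5 rose 1.55-fold (adjusted p = 0.000123), and Fosl1, an AP-1 subunit, fell 3.16-fold. With only these 6 libraries Pmepa1, Ankrd1, Id1 and Ltbp3 were not called.

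Markers of tubular injury were among the lower genes. Of 24 tested members, 10 fell (41.7%) and 1 rose (4.17%, median -0.46), beside 6.97% and 3.45% of all genes. With inhibitor alone, 15 of the 24 were called lower and 2 higher against controls, beside 5.8% and 2.47% of all genes. The falls of this list were therefore not limited to cells with TGFβ. Havcr1, the gene of KIM-1, had 26.6, 15.3 and 30.2 CPM with TGFβ and 2.66, 4.27 and 3.83 CPM with both agents (log2 -2.71 ± 0.33, adjusted p = 4.33e-05). Vcam1, an adhesion molecule of poorly repaired tubule cells, went from 120, 93.8 and 77.7 CPM to 43.9, 43.4 and 41.2 CPM (log2 -1.20 ± 0.13). Sox9, a transcription factor of regenerating tubules, went from 81.5, 89.5 and 73.5 CPM to 37.7, 37.9 and 39.6 CPM (log2 -1.10 ± 0.10). For all 3 the groups did not overlap, but only Havcr1 was higher with TGFβ than in controls: controls held 6.68 ± 0.621, 240 ± 2.56 and 129 ± 4.71 CPM. Cells with inhibitor alone held 0.439 ± 0.396, 74.5 ± 4.99 and 171 ± 4.67 CPM. Havcr1 and Vcam1 thus also fell without TGFβ, whereas Sox9 rose. Plin2, which coats lipid droplets, fell 1.69-fold and stayed above controls (log2 1.66, adjusted p = 1.2e-07).

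Of 15 tested junction and keratin genes, 5 fell (33.3%) and 0 rose (median -0.24), beside 6.97% and 3.45% of all genes. Among the falls were Krt7, from 9.37, 12.2 and 8.03 CPM to 2.43, 2.02 and 2.91 CPM, and Krt18, from 2.59, 4.07 and 4.59 CPM to 0.347, 0.449 and 0.264 CPM. Of 14 proximal tubule genes 4 fell (28.6%) and 1 rose (7.14%). The rise was of Lrp2, the endocytic receptor megalin, from 77.1, 80.8 and 82.3 CPM to 122, 119 and 117 CPM (log2 0.58 ± 0.09, adjusted p = 0.000372), beside 105 ± 2.41 CPM in controls. Aqp1, the water channel, fell from 35, 19.5 and 21 CPM to 7.52, 15.4 and 11.5 CPM (log2 -1.16 ± 0.25, adjusted p = 0.0104), and lost the call without replicate 3 of the combined treatment (0.0533). Controls had 1012 ± 46.9 CPM. The amino acid transporter Slc6a19 and the bicarbonate transporter Slc4a4 also fell. Aqp1 and Slc4a4 were not called in the fit of only these 6 libraries. Of 11 factors of epithelial-mesenchymal transition 0 rose and 3 fell (27.3%), Twist2 (log2 -1.86 ± 0.27), Hmga2 (-0.88 ± 0.15) and Sox9.

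Marker lists of kidney and other cell types were summed in each library. The 46 proximal tubule markers summed to 450 to 572 CPM with TGFβ and 442 to 458 CPM with both agents, against 1660 to 1704 CPM in controls. The 29 markers of the loop of Henle and distal tubule summed to 82.3 to 112 CPM and 79.2 to 84.4 CPM, and the 20 podocyte markers to 709 to 919 CPM and 671 to 719 CPM. Of 13 podocyte markers tested 2 fell (15.4%) and 1 rose (7.69%), beside 6.97% and 3.45% of all genes. The 22 fibroblast and pericyte markers summed to 468 to 549 CPM and 329.8 to 474 CPM, the 28 immune cell markers to 68.5 to 95.5 CPM and 44 to 51.1 CPM, and the 19 endothelial markers to 48.6 to 64.4 CPM and 39.9 to 53 CPM. Of 4 immune markers tested, 2 fell, led by Csf1r, the receptor for colony-stimulating factor 1, which went from 50.3, 38.1 and 44.4 CPM to 23.4, 19.9 and 26.4 CPM (log2 -0.93 ± 0.14). Csf1r overlaps Hmgxb3 on the opposite strand, Adgre1 was at 0 counts and Ptprc had 2 and 10 counts in the 2 groups. The part of these cell types in the results was not tested.

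Interferon-stimulated genes had the highest share of falls among the 47 lists. Of 72 tested members, 46 fell (63.9%) and 0 rose, beside 6.97% and 3.45% of all genes. Their median log2 difference was -0.78, and all 3 libraries with inhibitor lay below the 3 without for 53 of the 72. The same held for 13.8% of all genes. Against controls 57 of the 72 were called higher with TGFβ and 42 with TGFβ plus inhibitor, beside 19.4% and 15.3% of all genes. Those comparisons share libraries with the first. Fitted on only these 6 libraries, 33 members fell, and 34 to 52 fell when 1 library was left out. With counts thinned to the shallowest library 25 fell. The cells had been kept in IFNγ until 7 days before seeding.

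Many promoters of this class hold an interferon-stimulated response element, a repeat of GAAA spaced by 2 bases. The motif GAAANNGAAA, searched on both strands (TTTCNNTTTC on the other), was found in 3.99% of 27025 genes with a RefSeq promoter window of 300 bases on GRCm38.p6. Windows run from 250 bases before to 50 after the transcription start. Of 60 interferon-list genes with a window, 33 held a match: 20 of the 35 called lower and 13 of the 25 not called lower. Below are the windows of Ifit3 and Gbp3, where matches lie before the start, and of Ifitm3, where they lie just after it, with the matches in capitals.
Ifit3: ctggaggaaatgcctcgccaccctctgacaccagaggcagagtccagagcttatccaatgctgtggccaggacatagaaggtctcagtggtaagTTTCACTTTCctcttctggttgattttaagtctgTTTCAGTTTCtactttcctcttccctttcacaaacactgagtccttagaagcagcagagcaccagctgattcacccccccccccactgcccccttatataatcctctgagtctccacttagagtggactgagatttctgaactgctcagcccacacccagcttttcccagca
Gbp3: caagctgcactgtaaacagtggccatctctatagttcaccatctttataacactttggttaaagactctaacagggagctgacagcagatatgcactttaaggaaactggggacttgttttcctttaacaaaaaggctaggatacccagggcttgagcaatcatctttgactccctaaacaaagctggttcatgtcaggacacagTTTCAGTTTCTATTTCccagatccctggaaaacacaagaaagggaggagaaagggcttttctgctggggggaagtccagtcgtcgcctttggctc
Ifitm3: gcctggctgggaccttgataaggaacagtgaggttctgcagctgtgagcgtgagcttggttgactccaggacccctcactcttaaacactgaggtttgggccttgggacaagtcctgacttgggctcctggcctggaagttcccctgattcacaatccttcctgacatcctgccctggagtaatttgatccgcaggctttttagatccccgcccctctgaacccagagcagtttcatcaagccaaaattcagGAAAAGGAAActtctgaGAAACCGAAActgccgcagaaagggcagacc
The Ifit3 window is chr19:34583279-34583578 on the plus strand, with matches starting 156 and 122 bases before the start. Gbp3 has 2 windows, and that shown, which holds matches, is chr3:142559794-142560093 on the plus strand. Its overlapping matches lie 45 and 39 bases before the start. The window of Ifitm3 is chr7:141010695-141010994 on the minus strand, with matches 2 and 19 bases after the start. A match is a description of the letters and not a site shown to be bound.

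Ifit3, an RNA-binding antiviral protein, had 206, 185 and 172 CPM with TGFβ and 64.9, 86.7 and 82 CPM with both agents (log2 -1.27 ± 0.12, adjusted p = 2.46e-06). Controls had 64.2 ± 7.28 CPM, from which the second level was not called different (log2 0.28, adjusted p = 0.093). Gbp3, a guanylate-binding GTPase, went from 146, 151 and 152 CPM to 65.2, 71.4 and 63.4 CPM (log2 -1.16 ± 0.11) and stayed above controls, at 20.5 ± 1.35 CPM. Ifitm3, a membrane protein that blocks virus entry, went from 1395, 1947 and 1326 CPM to 572, 702 and 606 CPM (log2 -1.31 ± 0.13). No library with inhibitor reached the lowest without it in any of the 3. Slfn2, a schlafen protein of quiescent lymphocytes, fell 7.14-fold, from 31.6, 25.1 and 31 CPM to 4.4, 4.05 and 3.7 CPM, below the controls (9.45 ± 1.47 CPM). Trim30a fell 2.39-fold (adjusted p = 1.16e-06). Ifit, Gbp, Ifitm, Slfn and Trim30 genes are families of close copies, and reads could be split between members.

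Antigen presentation and secreted signals followed the same direction in part. Of 29 tested antigen presentation genes 11 fell (37.9%) and 1 rose (3.45%, median -0.38), beside 6.97% and 3.45% of all genes. Psmb8, an immunoproteasome subunit, went from 152, 212 and 158 CPM to 90.4, 88.9 and 93 CPM (log2 -0.94 ± 0.12), and B2m, the shared light chain of class I molecules, from 3115, 3228 and 2971 CPM to 2314, 2088 and 2329 CPM (log2 -0.47 ± 0.09). The class I gene H2-Q7 fell 2.06-fold, the class II gene H2-Eb1 1.8-fold and Nlrc5, the activator of class I genes, 2.11-fold. H2-Eb1 was at 181 ± 10.1 CPM in controls, above both groups. The number of falls was 4 with only these 6 libraries, beside 332 of all 12799 genes in that fit, where B2m was not called.

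Among 34 tested secreted factors of senescent cells 12 fell (35.3%) and 2 rose (5.88%, median -0.70), beside 6.97% and 3.45% of all genes. Inhba, which encodes activin A, went from 257, 281 and 372 CPM to 167, 186 and 154 CPM (log2 -0.83 ± 0.13), and stayed above controls at 52.1 ± 2.82 CPM. The chemokine Cxcl10 went from 403, 477 and 484 CPM to 279, 302 and 280 CPM (log2 -0.66 ± 0.10), Ccl5 fell 2.34-fold and Cxcl16 2.1-fold. Igfbp5, a secreted IGF-binding protein, was one of the 2 rises, from 6.25, 8.24 and 4.59 CPM to 17.4, 15.4 and 16 CPM (log2 1.26 ± 0.24). Of 28 NF-kB and inflammation genes 9 fell (32.1%) and 1 rose (3.57%). Ptgs2, the inducible cyclooxygenase, went from 15, 12.8 and 18.4 CPM to 4.86, 3.48 and 4.89 CPM (log2 -1.77 ± 0.36). The chemokine Cxcl1 fell, from 24.5, 9.92 and 25.3 CPM to 7.64, 7.75 and 7 CPM, a call lost with only these 6 libraries. Of 20 chemokine and complement genes 7 fell (35%) and 0 rose.

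**Figure D3:**
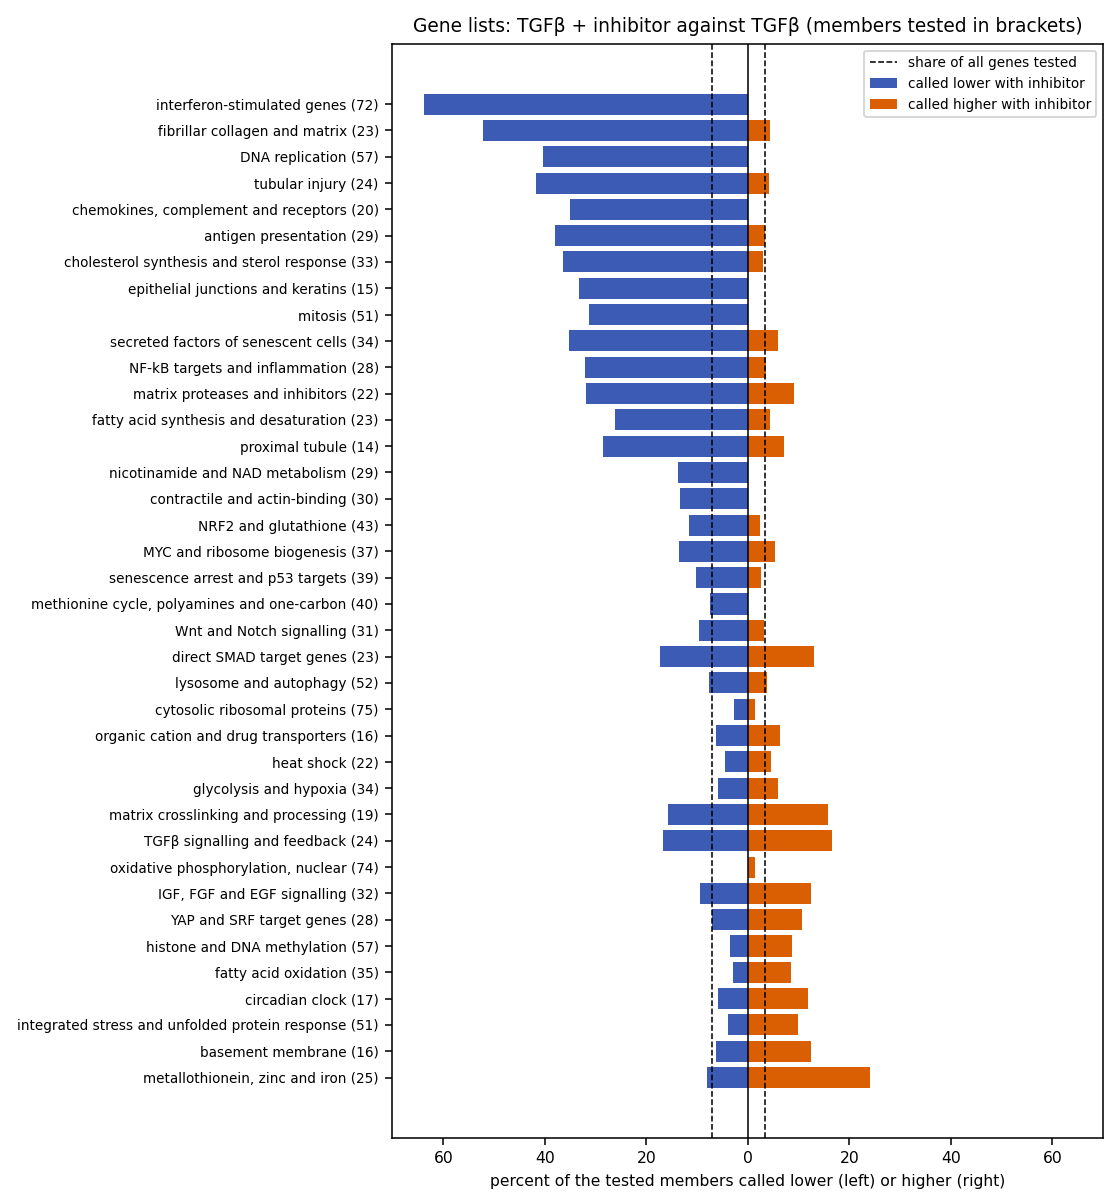
For each of the 38 lists with at least 14 tested members, bars show the percent of tested members called lower (left) or higher (right) with TGFβ plus inhibitor against TGFβ, and the dashed lines the shares of all genes, 6.97% and 3.45%. Interferon-stimulated genes reach 63.9% lower, fibrillar collagens and matrix 52.2% and DNA replication 40.4%, whereas oxidative phosphorylation stays near 0 on both sides.

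Genes of DNA replication and mitosis were lower with the inhibitor. Of 57 replication genes 23 fell (40.4%) and 0 rose (median -0.41), and of 51 mitosis genes 16 fell (31.4%) and 0 rose (median -0.38). Of all genes 6.97% fell and 3.45% rose. Without regard to the test, 53 replication and 48 mitosis genes lay below 0, beside 7115 of all 13581 genes. Tk1, thymidine kinase, had 98.9, 106 and 65.4 CPM with TGFβ and 46.2, 50.2 and 40.1 CPM with both agents (a 2.01-fold fall, adjusted p = 0.000207), the latter at the level of the controls (46.8 ± 0.118 CPM). Mcm3, a subunit of the replicative helicase, went from 194, 228 and 181 CPM to 130, 145 and 134 CPM (log2 -0.57 ± 0.10). Uhrf1, which brings DNA methylation to new strands, fell 1.65-fold, and the ribonucleotide reductase subunit Rrm1 1.44-fold. Mcm3, Uhrf1 and Rrm1 stayed above controls, by log2 0.35 to 0.63 (adjusted p from 0.00013 to 0.0064). In mitosis, the transcription factor Foxm1 went from 60.5, 59.9 and 59.7 CPM to 37.6, 41.8 and 39.2 CPM (log2 -0.60 ± 0.11), and Ect2, Tpx2 and Hmmr fell 1.66-, 1.55- and 1.59-fold.

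The number of calls varied with the libraries used. With only these 6 libraries 5 replication and 2 mitosis genes were called lower, beside 332 of all 12799 genes in that fit. Without replicate 3 of the combined treatment the numbers were 11 and 5. With counts thinned to the shallowest library they were 7 and 0, beside 217 of all 11764 genes tested there. Tpx2 and Hmmr were not called with only these 6 libraries. Mki67, the proliferation marker, had 71.5, 116 and 71.5 CPM against 51, 72.5 and 56.3 CPM and missed the threshold (log2 -0.54 ± 0.17, adjusted p = 0.0555). It passed in 8 of 15 other settings. Among these were DESeq2 (0.0362) and fits without TGFβ replicate 1, TGFβ replicate 3 or replicate 2 of the combined treatment (0.0264, 0.0236 and 0.0296). Across the 15 the adjusted p reached 0.428.

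E2F factors drive replication genes, and the motifs TTTGGCGC and TTTCCCGC, searched on both strands, were found in 1.8% of all genes with a window and in 13 of 46 replication genes with a window, 6 of the 18 called lower and 7 of the 28 not. The window of Mcm3, chr1:20820263-20820562 on the minus strand of GRCm38.p6, is shown as that of a gene that fell and holds a pair of matches, 19 and 38 bases after the start, in capitals.
Mcm3: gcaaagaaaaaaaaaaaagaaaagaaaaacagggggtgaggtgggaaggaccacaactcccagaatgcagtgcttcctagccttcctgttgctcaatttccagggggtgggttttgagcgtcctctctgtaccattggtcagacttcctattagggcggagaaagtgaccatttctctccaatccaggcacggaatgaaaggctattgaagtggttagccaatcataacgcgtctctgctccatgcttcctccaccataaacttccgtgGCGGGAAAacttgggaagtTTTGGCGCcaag

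The histone genes Hist1h1c and Hist1h2bc and the cyclin gene Ccnd1 also fell. Hist1h1c, a linker histone, had 142, 136 and 164 CPM with TGFβ and 43.4, 34.2 and 37.4 CPM with both agents (log2 -1.93 ± 0.12, adjusted p = 1.26e-08), below the controls at 67.5 ± 6.27 CPM. Hist1h2bc went from 49.4, 65.4 and 53.6 CPM to 16.3, 22.5 and 14.3 CPM (log2 -1.67 ± 0.16). Ccnd1, which encodes the cyclin of early G1, went from 53.5, 46.3 and 66.6 CPM to 10.2, 13.9 and 13.2 CPM (log2 -2.13 ± 0.14, adjusted p = 2.42e-08), whereas controls had 554 ± 9.36 CPM and cells with inhibitor alone 167 ± 8.92 CPM. None of the 3 overlapped between the groups. Histone genes are close copies of each other, and their reads could be split between them.

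The cell cycle inhibitors linked to senescence were not called. Cdkn1a, the gene of p21, had 2559, 2454 and 1986 CPM with TGFβ and 2168, 2303 and 2190 CPM with both agents (log2 -0.07 ± 0.10, adjusted p = 0.699). Cdkn2a, the locus of p16 and p19, had 1024, 891 and 662 CPM against 830, 731 and 986 CPM (log2 -0.02 ± 0.13, adjusted p = 0.944), and both groups were above the controls (557 ± 30.9 CPM). Both genes overlapped between the groups. Cdkn2b, the gene of p15, was higher in each library with inhibitor, with 183, 178 and 164 CPM against 131, 153 and 145 CPM. It missed the threshold (log2 0.29 ± 0.09, adjusted p = 0.0566). It passed in 3 of 15 other settings, among them DESeq2 (0.0316) and the fit without TGFβ replicate 2 (0.0106). Across the 15 the adjusted p reached 0.311. Lmnb1, the lamin lost in senescence, had 148, 174 and 96 CPM against 124, 96.1 and 122 CPM and passed the threshold only when TGFβ replicate 3 was left out (adjusted p = 0.27 with it and 0.0136 without). Of 39 genes of senescence arrest and p53 response 4 fell (10.3%) and 1 rose (2.56%, median -0.07), beside 6.97% and 3.45% of all genes. The rise was of Gadd45a, and Ccnd1, the p53 target Pmaip1 (log2 -1.09 ± 0.21) and Perp (-0.48 ± 0.10) were among the falls. Perp was not called with only these 6 libraries.

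NNMT draws on nicotinamide and on the methyl donor of the methionine cycle. Of 29 tested genes of nicotinamide and NAD metabolism 4 fell (13.8%, beside 6.97% of all genes) and 0 rose (median -0.09), and the count was 1 with only these 6 libraries. Nampt, which makes the precursor of NAD from nicotinamide, overlapped between 83.6, 55.9 and 62.7 CPM and 54.5, 51.9 and 73.6 CPM (log2 -0.18 ± 0.15, adjusted p = 0.491), and both were below the controls, at 172 ± 2.6 CPM. Parp9, an interferon-induced member of the PARP family, fell from 167, 248 and 166 CPM to 112, 110 and 117 CPM (log2 -0.79 ± 0.16). It overlaps Dtx3l on the opposite strand, so their reads may not be told apart. Of 40 genes of the methionine cycle, polyamines and one-carbon metabolism 3 fell (7.5%, near the share of all genes) and 0 rose.

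Among 57 genes of histone and DNA methylation 5 rose (8.77%) and 2 fell (3.51%, median 0.03), beside 3.45% and 6.97% of all genes. Kdm7a, a histone demethylase, rose from 23.6, 19.3 and 21 CPM to 41.3, 30.7 and 39.4 CPM (log2 0.80 ± 0.13, adjusted p = 0.000851), close to the controls (46.5 ± 1.33 CPM). Tet3, which oxidizes methylcytosine, rose from 65.5, 51.4 and 59.3 CPM to 96.2, 83.9 and 94.6 CPM (log2 0.64 ± 0.11), and the DNA methyltransferase Dnmt3a from 124, 144 and 103 CPM to 177, 165 and 170 CPM (log2 0.45 ± 0.11). In all 3 the libraries with inhibitor were the higher. Dnmt3a was not called with only these 6 libraries, where 2 genes of the list rose.

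Lipid synthesis was lower in part. Of 33 genes of cholesterol synthesis and sterol response 12 fell (36.4%) and 1 rose (3.03%, median -0.40), beside 6.97% and 3.45% of all genes. The number of falls was 3 with only these 6 libraries and 5 without replicate 1 of the combined treatment. It was 0 with counts thinned to the shallowest library. Hsd17b7, an enzyme of the pathway, went from 67.7, 62.9 and 65.4 CPM to 44, 45.4 and 43.2 CPM (log2 -0.56 ± 0.12). Cyp51 fell 1.38-fold, overlapping Akap9 on the opposite strand and not called with only these 6 libraries. The cholesterol exporter Abca1 fell from 1.08, 1.15 and 1.15 CPM to 0.231, 0.112 and 0.132 CPM, and Abcg1 2.21-fold. Abca1 was near the floor, as 3 counts equal 1.16 CPM in TGFβ replicate 3 and 0.324 to 0.383 CPM in the libraries with both agents. After thinning to the shallowest library both calls were lost (adjusted p = 0.355 and 0.529). Of 23 genes of fatty acid synthesis and desaturation 6 fell (26.1%) and 1 rose (4.35%). Scd1, a desaturase, went from 25.6, 20.5 and 22.6 CPM to 9.61, 8.2 and 9.24 CPM (log2 -1.35 ± 0.16, adjusted p = 2.84e-05), Scd2 fell 1.5-fold, and Fads2 fell 1.38-fold, a call lost with only these 6 libraries.

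Genes of glutathione and of metal handling were called in both directions. Of 43 NRF2 and glutathione genes 5 fell (11.6%) and 1 rose (2.33%), beside 6.97% and 3.45% of all genes. Gclc, the limiting enzyme of glutathione synthesis, went from 144, 158 and 130 CPM to 63.4, 59.2 and 65.4 CPM (log2 -1.21 ± 0.10, adjusted p = 3.97e-07), with controls at 269 ± 3.81 CPM. Mgst2, a microsomal glutathione transferase, fell 2.55-fold. Of 25 genes of metallothionein, zinc and iron 6 rose (24%, beside 3.45% of all genes) and 2 fell, the rises including Mt1 (1.52-fold), the iron storage chain Fth1 (1.32-fold) and the transferrin receptor Tfrc (1.35-fold). None of these 3 rises was called with only these 6 libraries. Pdk1, which restrains entry of pyruvate into mitochondria, rose from 4.95, 5.76 and 5.36 CPM to 9.38, 10.5 and 9.9 CPM (log2 0.88 ± 0.18), and the acyl-CoA dehydrogenases Acads and Acadsb rose 1.47- and 1.45-fold. These 3 were also not called with only these 6 libraries.

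Of 51 genes of the integrated stress and unfolded protein response 5 rose (9.8%) and 2 fell (3.92%), beside 3.45% and 6.97% of all genes. The rises included Slc3a2, an amino acid transporter chain, which went from 410, 277 and 405 CPM to 510, 548 and 541 CPM (log2 0.55 ± 0.12) and was not called with only these 6 libraries. The heat shock gene Hspa1b fell from 26, 29.2 and 32.5 CPM to 12.7, 13.8 and 11.6 CPM (log2 -1.18 ± 0.18, adjusted p = 0.000294), the level of the controls (13.2 ± 2.53 CPM), while 1 of the 22 heat shock genes rose (4.55%). Among 74 nuclear genes of oxidative phosphorylation 1 rose (1.35%) and 0 fell (median 0.09), and among 75 cytosolic ribosomal proteins 1 rose (1.33%) and 2 fell (2.67%, median -0.08). These shares were below those of all genes. Of 34 glycolysis and hypoxia genes 2 rose and 2 fell (5.88% each, near the shares of all genes).

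**Figure D4:**
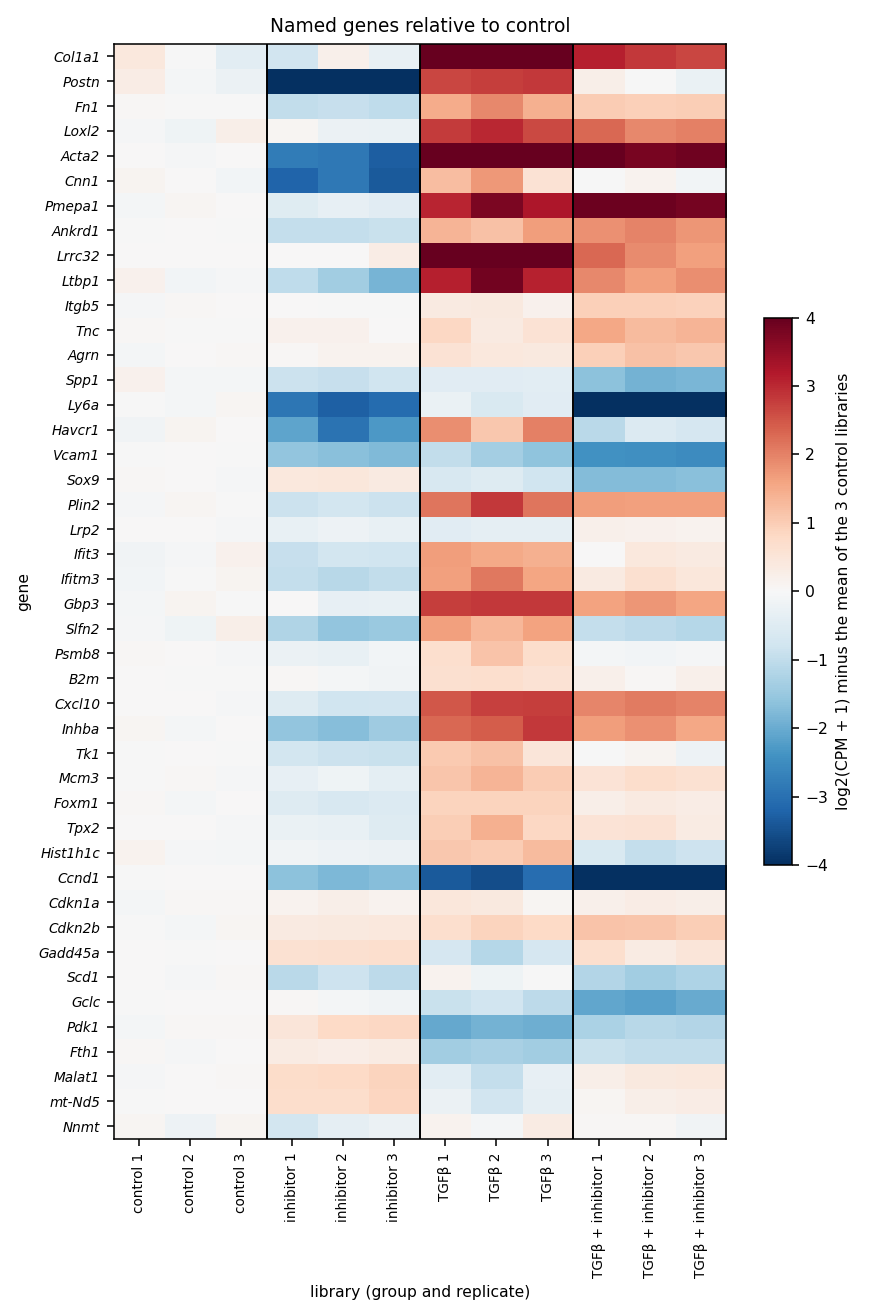
For 44 named genes (rows), the colour gives log2(CPM + 1) in each of the 12 libraries (columns, by group and replicate) minus the mean of the 3 controls, limited to 4 on both sides. Ifit3, Ifitm3, Gbp3, Tk1 and Mcm3 are paler red with TGFβ plus inhibitor than with TGFβ, Acta2 and Pmepa1 are dark in both, and Ly6a, Ccnd1, Vcam1, Sox9 and Gclc are darkest blue with TGFβ plus inhibitor.

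The mean shares of mitochondrially encoded mRNA and of Malat1 were higher in the libraries with the inhibitor. Mitochondrially encoded mRNA took 3.40 ± 0.528% of the counts with TGFβ and 4.70 ± 0.606% with both agents (SD, n = 3 each; exact permutation test, two-sided, p = 0.1, the smallest that 3 against 3 libraries can give), and Malat1, a long non-coding RNA kept in the nucleus, 1.35 ± 0.323% and 2.44 ± 0.168% (exact permutation p = 0.1). Without TGFβ, mitochondrially encoded mRNA took 4.17 ± 0.352% in controls and 6.43 ± 0.872% with inhibitor alone, and Malat1 2.07 ± 0.0619% and 3.43 ± 0.146%. The share of reads in no annotated gene was 21.8 ± 0.883% with TGFβ and 22.1 ± 0.912% with both agents (exact permutation p = 0.8). On the TMM scale Malat1 had 14886, 10312 and 15644 CPM with TGFβ and 23185, 25762 and 26695 CPM with both agents (log2 0.89 ± 0.13, adjusted p = 0.000223). Of 7 mitochondrially encoded mRNAs tested 4 rose (57.1%, beside 3.45% of all genes) and 0 fell (median 0.45), among them mt-Nd5, from 1128, 775 and 1033 CPM to 1390, 1556 and 1619 CPM, and mt-Nd4 (log2 0.67 ± 0.15). These mRNAs were not called with only these 6 libraries, where no member of the list was, and mt-Nd4 lost the call with limma-voom quality weights. The part of RNA composition in the other results was not tested.

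The same inhibitor was also given without TGFβ, and the difference between the 2 inhibitor effects was tested as an interaction. It was called for 151 genes (1.11%), 87 with a more positive and 64 with a more negative log2 difference in the presence of TGFβ. The inhibitor alone changed 335 genes upwards (2.47%) and 788 downwards (5.8%) against controls, while TGFβ with inhibitor against controls had 2077 called higher (15.3%) and 2244 lower (16.5%), and TGFβ alone 2636 higher (19.4%) and 2325 lower (17.1%). The interaction shares libraries with these comparisons. The count ranged from 65 without control replicate 2 to 399 without TGFβ replicate 2.

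Of 30 contractile genes 9 had a called interaction, all 9 positive, and of 23 fibrillar collagens and matrix proteins 3 had one, 2 positive and 1 negative, beside 1.11% of all genes. Acta2 fell from 43.6 ± 1 CPM in controls to 4.7 ± 1.05 CPM with inhibitor alone (log2 -3.21 ± 0.16), against -0.37 ± 0.12 with TGFβ, and the difference of 2.84 ± 0.20 was called (adjusted p = 3.78e-07). Postn fell by 4.70 alone and by 2.77 with TGFβ (interaction 1.93 ± 0.26, adjusted p = 0.000633). The negative one was of Col1a1, which was not called with inhibitor alone (log2 -0.34 ± 0.30) and fell by 2.10 with TGFβ (interaction -1.76 ± 0.37, adjusted p = 0.0291). That call was lost without replicate 2 or 3 of the controls, of the inhibitor alone or of the combined treatment (adjusted p up to 0.126) and after thinning (0.148). Ccbe1, a secreted factor of lymphatic growth, fell by 2.37 alone and 0.74 with TGFβ (interaction adjusted p = 0.000173). Ankrd1 and Slc20a1, a phosphate transporter, were lower with inhibitor alone (log2 -0.94 ± 0.11 and -0.63 ± 0.10) and higher with inhibitor and TGFβ (0.45 ± 0.11 and 0.52 ± 0.10). The latter rise of Slc20a1 was not called with only the 6 libraries with TGFβ.

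Other genes fell only, or further, when TGFβ was present, by the same test. Sox9 rose with inhibitor alone (log2 0.41 ± 0.09) and fell with TGFβ (-1.10 ± 0.10; interaction adjusted p = 1.24e-05). Hist1h1c, Hist1h2bc and Gclc were not called with inhibitor alone (log2 -0.20 ± 0.12, 0.21 ± 0.16 and -0.05 ± 0.09) and their interactions were -1.74 ± 0.16, -1.87 ± 0.23 and -1.16 ± 0.14. Flrt1, an adhesion protein of the FLRT family, had 85 counts over the 3 TGFβ libraries and 0 with both agents. With the latter set to a floor of 3 counts over the group, the fall was 30.7-fold, and the exact 95% counting interval of the fall began at 24.4-fold. It was at 12.2 ± 1.84 CPM in controls and 10.1 ± 1.28 CPM with inhibitor alone. The interaction calls of Acta2, Postn, Ccbe1, Ankrd1, Slc20a1, Sox9, Hist1h1c, Hist1h2bc, Gclc and Flrt1 were kept when any 1 of the 12 libraries was left out. After thinning to the shallowest library those of Ccbe1 (adjusted p = 0.214), Hist1h2bc (0.0745) and Flrt1 (0.232) were lost.

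**Figure D5:**
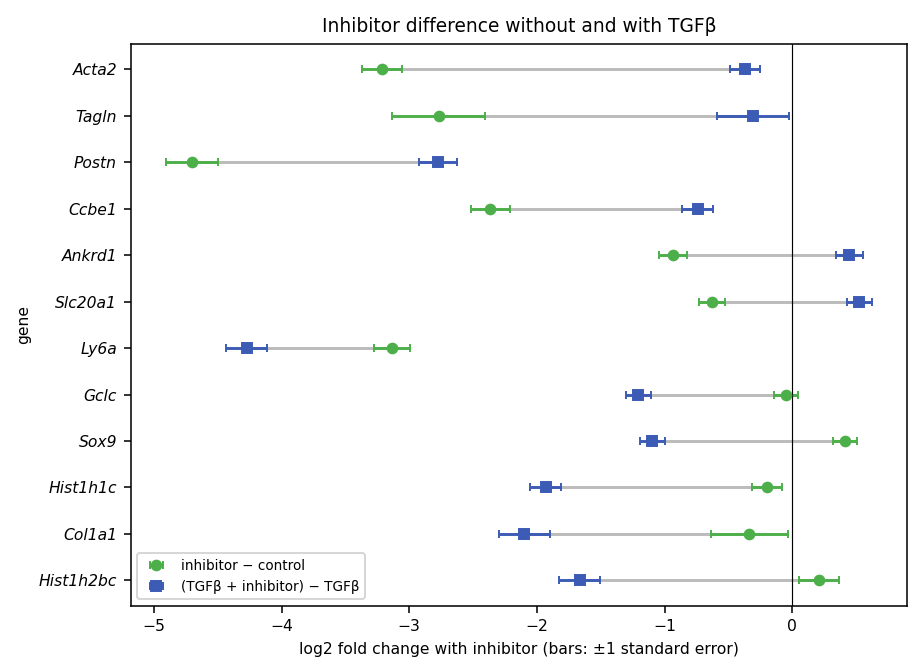
For 12 genes with a called interaction, the log2 fold change with inhibitor is drawn without TGFβ (circles, inhibitor minus control) and with TGFβ (squares, TGFβ plus inhibitor minus TGFβ), with bars of 1 standard error on each side. Acta2, Tagln, Postn and Ccbe1 have their circles further below 0 than their squares, and Hist1h1c, Hist1h2bc, Gclc, Sox9 and Col1a1 the reverse.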

How the data were processed

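Messenger RNA of im-TEC was sequenced in 12 libraries from 100 ng of total RNA with QuantSeq 3′ FWD libraries, per the labels. Alignment was by STAR and counting by HTSeq, per the submitters' processing notes, and the authors deposited whole-number counts for each gene. Versions and the strand used for counting are not given in the sources used here. The notes name the human build GRCh38 whereas the identifiers are of mouse genes, and gene positions are therefore left out. Summary rows that name no gene were left out of library sizes. Of 131 named genes, 18 share exon sequence with a tested gene on the opposite strand in GENCODE M21, and without the strand their reads may be mixed.

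Counts were tested with edgeR 4.0.16 (R 4.3.3) by a quasi-likelihood F-test with robust dispersion, TMM scaling and the filterByExpr filter, in 1 model of the 4 group means over all 12 libraries. P-values were Benjamini-Hochberg adjusted over all 13581 genes. A fold change comes from that fit, with its standard error. Intervals and floors cover counting error only. The model script was checked on simulated counts. No replicate block was used. Alternatives were DESeq2 1.42.0, limma-voom 3.58.1 with quality weights, other scalings, no filter, counts thinned to the shallowest library, a replicate block, only the 6 libraries compared, and each library left out.

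Named genes are a panel, the 12 largest rises and falls among called genes with at least 10 CPM in a group and no overlap, up to 5 called members of smallest adjusted p per list, the 8 called genes of smallest interaction p, and the 5 most abundant called genes; those whose call depended on the library left out are mostly counted without being named, and some genes that the rule names are not reported here. The genes and the 47 lists were chosen with earlier results of these data known.

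Promoter sequences are from RefSeq (GRCm38.p6), matched by symbol.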

Additional observations from a re-analysis of the deposited data

Results flagged for a closer look

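The difference made by the inhibitor was not the same with and without TGFβ for 151 genes, by the interaction test of edgeR with Benjamini-Hochberg adjustment. Of these, 13 are given here, from the panel, the largest rises and falls, and the 8 called genes of smallest interaction p. The values are the log2 difference with TGFβ minus that without, with 3 libraries in each of the 4 groups. Positive values were found for Acta2 (2.84), Tagln (2.46), Postn (1.93), Ccbe1 (1.63), Ankrd1 (1.38) and Slc20a1 (1.15). Negative values were found for Hist1h2bc (-1.88), Col1a1 (-1.76), Hist1h1c (-1.74), Sox9 (-1.51), Gclc (-1.16) and Ly6a (-1.14). For Flrt1 the fitted value was -7.64, which depends on the prior count because all 3 libraries with both agents were at 0, and is not a bound. Across the 13 the adjusted p ranged from 3.78e-07 for Acta2 to 0.0356 for Tagln. Other genes described above were also called but are not among the 13, such as S100a4 (1.47, adjusted p = 0.000609), Cnn1 (2.51, 0.0022) and Lrp2 (0.85, 0.0015). Of the 13, 3 lost the call when a library was left out: Tagln (adjusted p up to 0.093), Col1a1 (up to 0.126) and Ly6a, the last without inhibitor replicate 1 (0.0532) or replicate 1 of the combined treatment (0.0685). With counts thinned to the shallowest library 6 of the 13 lost it: these 3 (adjusted p = 0.05005 for Tagln, 0.148 for Col1a1 and 0.605 for Ly6a), Ccbe1 (0.214), Hist1h2bc (0.0745) and Flrt1 (0.232). Tagln also lost it without a filter (0.0788) and with a replicate block (0.0617).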

How the results depend on the processing

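The count of genes called between TGFβ plus inhibitor and TGFβ, 1416, stayed within 1.5 times under DESeq2, other scalings, no filter, quality weights and a replicate block over all 12 libraries (1306). It was 322 (217 lower and 105 higher) with counts thinned to the shallowest library, 408 (332 and 76) with only the 6 libraries, which leaves 4 residual degrees of freedom, and 261 (221 and 40) with those 6 and a replicate block. Leaving out 1 library gave 762 to 1938 calls, 505 to 1275 lower and 257 to 663 higher. The interaction, 151 genes, was called for 266 by DESeq2, 306 without a filter, 29 after thinning, and 65 to 399 with 1 library left out. The replicate numbers share no stated culture or day. Same-numbered libraries of the 2 groups correlated at 0.04, 0.07 and -0.16 in their deviations, and not every library did so best with its own number, so the block fits describe the numbers and not the design.

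Of 118 named genes called, 42 lost the call after thinning, 29 with only the 6 libraries and 51 with those and the block. None lost it under DESeq2 or RLE size factors. Genes that were not called changed sign near 0. Col4a1 was at 0.13 and Tgfb1 at 0.0044 with quality weights, Tgfb1 at 0.044 after thinning, and Cdkn2a at 0.0019 with only the 6 libraries and 0.011 with those and the block. With 1 library left out the log2 difference ran from -0.33 to 0.030 for Nampt, -0.51 to 0.086 for Tagln, -0.34 to 0.15 for Col4a1, -0.74 to 0.30 for Tgfb1, -0.17 to 0.0023 for Cdkn1a and -0.17 to 0.13 for Cdkn2a. The cause of these changes was not tested. The 2584117 counts of TGFβ replicate 3 limit what can be called for genes of few counts.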
